A study of Rattus norvegicus with 18 samples.

Results

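The genes described here encode the enzymes and partner proteins that write or erase methyl groups on histone lysines and arginines. They were chosen by symbol, from a list of 36 genes sorted by the residue they act on, whatever their level. A line for 34 of them was present among the 32545 lines of the deposited table, and 33 of these were among the 14865 genes that reached 1 RPKM in at least 2 libraries and were tested. RPKM corrects the reads of a gene for its length and for the reads mapped in that library. The symbols Kmt2d and Suv39h1 had no line. Setd1b, a writer of H3K4 methylation, had a line but stayed between 0.0771 and 1.23 RPKM and was not tested. The 33 tested genes comprised 20 writers (catalytic and non-catalytic) and 13 erasers.

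All animals were rats of the strain Crlj:WI with the genotype Prdm14-Venus, so the controls carried the reporter too. Epiblast, the pluripotent layer from which the embryo and its germ line arise, was sampled at embryonic day 7.25 (E7.25) and E7.75, with 2 libraries labelled male and 1 labelled female on each day. Primordial germ cells (PGC) are the cells that later give rise to the gametes. Daily samples from E9.5 to E12.5 gave 2 PGC libraries each of no labelled sex, and E15.5 gave 2 male and 2 female ones. The labels do not say whether replicates came from separate animals or whether animals were pooled, so each p-value measures the spread between these libraries. In bulk RNA, fewer cells of a type and less RNA per cell cannot be told apart.

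Methyl marks on histone tails are added by methyltransferases and removed by demethylases, and each enzyme prefers certain residues. Methylation of H3K4 marks active promoters and enhancers, H3K36 methylation marks transcribed gene bodies, and H3K9 and H3K27 methylation mark silent chromatin, the latter laid down by Polycomb repressive complex PRC2. In mouse embryos, newly formed germ cells lose much of their H3K9 dimethylation and gain H3K27 trimethylation while they migrate to the gonads. RNA levels, which are all that was measured here, give neither the amount of the enzymes nor that of the marks.

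Depth could be read only as a relative value from the spacing of low values. Relative to the female E7.75 library, 14 libraries ranged from 82.6% to 121%. The 4 from E10.5 and E11.5 ranged only from 20.7% to 22.95%. The 7 PGC marker genes summed to 5.56 to 19.99 RPKM in epiblast and to 423 to 850 RPKM in PGC. Not each of these genes separated every library. Dppa3, listed at 0 in epiblast, had 0.106 and 31.3 RPKM at E9.5 and at most 0.537 RPKM at E10.5 and E11.5. In male E15.5 PGC Dppa3 had 0.389 and 0.401 RPKM, against 49.5 to 85.7 RPKM at E12.5 and in female E15.5 PGC. Prdm14 had 0.299 RPKM in E10.5 replicate 1 and 1.11 RPKM in E7.25 male replicate 1. The epiblast markers summed to 3091 to 4295 RPKM in epiblast, 454 to 489 RPKM at E9.5 and 2196 to 2380 RPKM at E10.5. All 4 tested ones fell in PGC as a whole, but they did not all separate the cells. Dnmt3b did, at 915 to 1343 RPKM in epiblast and 3.04 to 26.2 RPKM in PGC. Utf1 had 1080 to 1626 RPKM in epiblast and 1599 to 1982 RPKM at E10.5 and E11.5, Pou5f1 overlapped as well, and Fgf5 was listed at 0 in all 18 libraries. The E9.5 libraries also held RNA of genes listed as markers of other cells, in lists made with earlier results of these data known. Summed markers of extraembryonic mesoderm reached 357 to 365 RPKM there, against 0.66 to 1.42 RPKM in E7.75 epiblast and 31.7 to 40.1 RPKM at E10.5. Hand1 alone stood at 261 and 245 RPKM at E9.5. Other cells in these libraries and expression by the PGC themselves cannot be told apart. One label did not match its library. In the library labelled E7.25 male replicate 2, the Y-linked genes Eif2s3y, Kdm5d and Uty were all listed at 0, while Eif2s3y lay between 118 and 166 RPKM in the other 3 male epiblast libraries and at 0.0466 and 0.140 RPKM in the female ones. Values of sex differences in epiblast are therefore given with and without that library. In the unlabelled E9.5 libraries Eif2s3y stood at 16.4 and 122 RPKM, so their replicates differed in Y-linked RNA.

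Levels per length spanned a wide range. The corepressor Trim28, which brings the H3K9 methyltransferase Setdb1 to retroelements, was the most abundant, at 279.6 to 669.7 RPKM. Next came the arginine methyltransferase Prmt5 at 81.7 to 189 RPKM and the H3K4 demethylase Kdm1a at 58.3 to 157 RPKM. At the low end, the large H3K4 methyltransferases Kmt2a, Kmt2b, Kmt2c and Setd1a all stayed between 0 and 5.47 RPKM. Of the 34 genes with a line, 12 had their lowest group mean in E10.5 PGC and 7 in E9.5 PGC, while 10 had their highest in E7.25 epiblast and 9 in female E15.5 PGC. The same count was not made over all tested genes, so this order is not shown to be particular to the listed ones. From E9.5 to E10.5, 18.4% of all tested genes fell and 11.5% rose. The E10.5 libraries are also among those of low depth, and the part of depth in this order was not tested. Between the highest and lowest group mean the ratio was widest for Kdm4c (15.4 against 0.181 RPKM) and Kdm6b (3.56 against 0.0788 RPKM), and narrow for the PRC2 subunit Eed (105 against 68.0 RPKM).

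**Figure D1:**
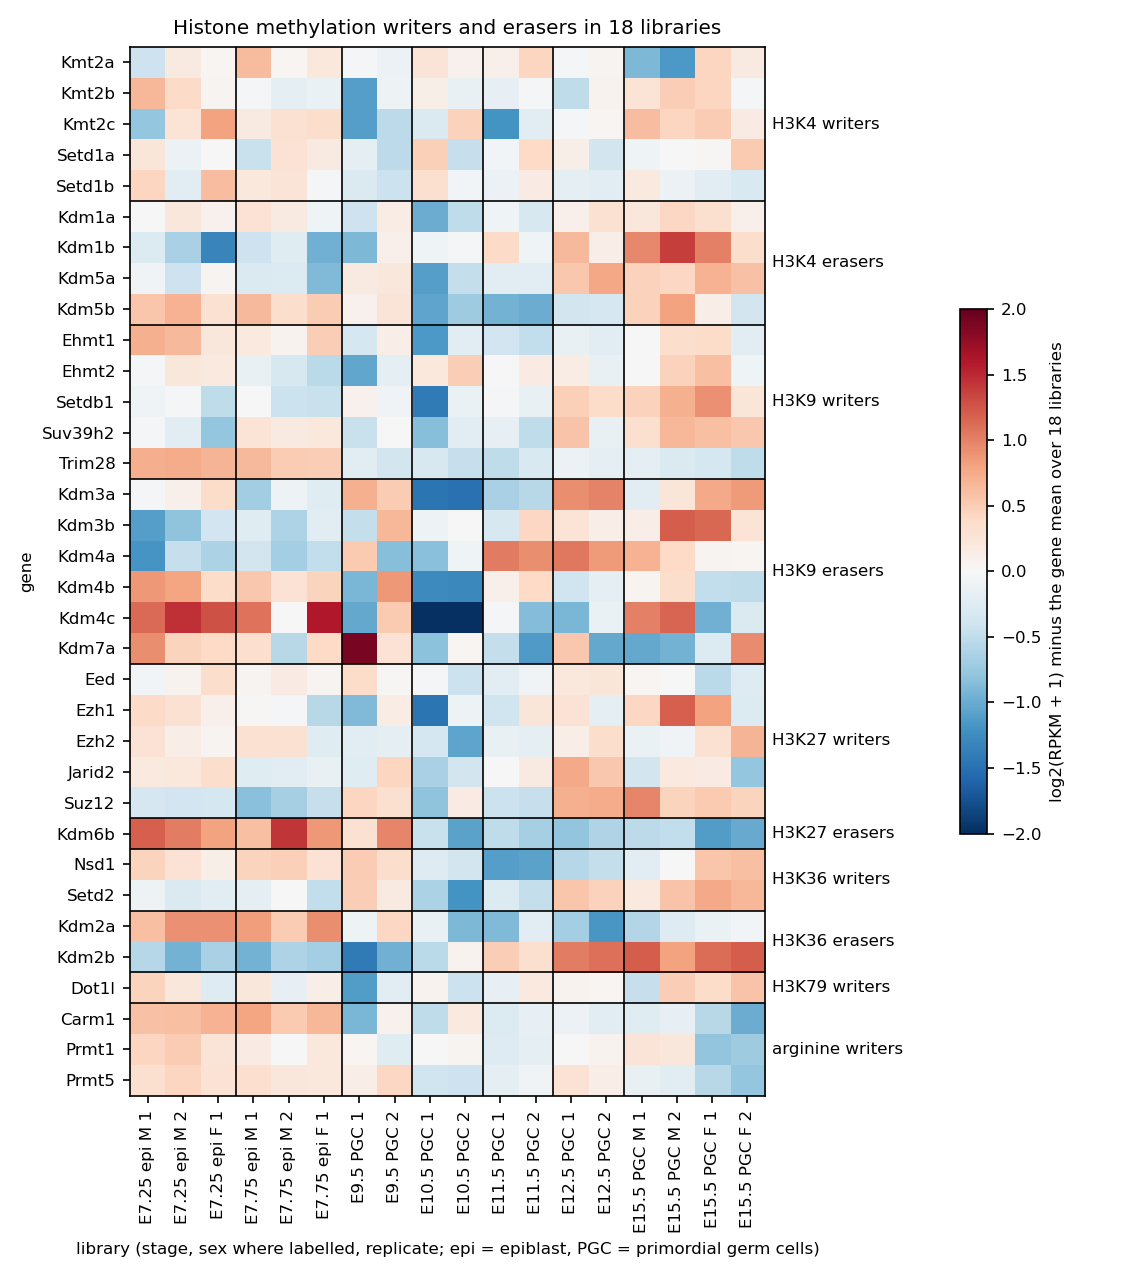
Level of each of the 34 genes (rows, sorted by mark and role) in the 18 libraries (columns, in order of stage), as log2(RPKM + 1) minus the mean of the gene over all libraries; red is above and blue below that mean. Kdm4c and Kdm3a are blue in the 2 E10.5 libraries, Kdm2b passes from blue in epiblast and E9.5 PGC to red from E11.5, and Trim28, Carm1 and Kdm2a are red in epiblast.

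PGC were first compared with epiblast as a whole, with the mean of the 6 PGC groups set against the mean of the 2 epiblast days. In PGC 7 of the 33 genes were higher and 11 were lower. Among all tested genes 32.1% were higher and 26.4% lower, so neither share stood far from that of genes at large. Both roles moved in both directions: 5 of 13 erasers rose and 5 fell, while 2 of 20 writers rose and 6 fell. Among close relatives, Kdm5a and Kdm5b, Kdm2a and Kdm2b, and Kdm4a against Kdm4b and Kdm4c passed in opposite directions. In the pairs Kdm1a and Kdm1b, Ehmt1 and Ehmt2, Ezh1 and Ezh2, and Kdm3a and Kdm3b, the genes did not both pass. How often related genes split among genes at large was not counted. The median log2 fold change of RPKM + 1 was -0.17 over the 33 genes and 0.09 over all tested genes. The addition of 1 RPKM before taking logs understates the change of low genes. In the same comparison 5 of 7 genes of handling and stress rose and 0 fell, with sums of 46.0 to 68.1 RPKM in epiblast and 259 to 744 RPKM in PGC. All 5 tested markers of extraembryonic mesoderm and 3 of 6 of mesenchyme rose too. The part of these in the differences between PGC and epiblast was not tested.

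For H3K4, none of the 4 tested writers passed the threshold (adjusted p of at least 0.325), and the erasers split. Kdm1b, a flavin-dependent H3K4 demethylase best known from oocytes, lay between 5.55 and 12.9 RPKM in the 6 epiblast libraries (median 10.4) and between 7.74 and 41.4 RPKM in the 12 PGC libraries (median 18.4). The groups overlapped at the low end of PGC, where E9.5 replicate 1 had the lowest value. The rise was 0.96 ± 0.20 on the log2 scale (SE, limma, Benjamini-Hochberg adjusted p = 0.000931). Its relative Kdm1a differed by -0.17 ± 0.10 (adjusted p = 0.154). Kdm1a passed as lower under median ratio scaling (-0.25, adjusted p = 0.0392) and without the E15.5 libraries (-0.34, adjusted p = 0.0183). The ratio of Kdm1a to Kdm1b within a library was 9.28 to 22.5 in epiblast and 3.80 to 11.3 in PGC. Kdm5b, a demethylase of H3K4 trimethylation, fell from a mean of 84.1 to 53.2 RPKM (-0.76 ± 0.10, adjusted p = 1.23e-05). Its paralog Kdm5a rose from 21.9 to 32.0 RPKM (0.47 ± 0.12, adjusted p = 0.00453), a call lost without the E15.5 libraries (0.28, adjusted p = 0.0953).

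For H3K9, the writers Trim28 and Ehmt1 fell, and the other 3 tested writers did not pass. Trim28 had 565 to 669.7 RPKM in epiblast (median 635) and 279.6 to 369 RPKM in PGC (median 323). The groups did not overlap. The fall was -0.95 ± 0.05 (adjusted p = 2.59e-09). Trim28 was chosen for this account after its values were seen. Ehmt1, which forms with Ehmt2 the main enzyme for H3K9 dimethylation, fell from 21.3 to 14.2 RPKM (-0.59 ± 0.16, adjusted p = 0.00571). Without the libraries of low depth at E10.5 and E11.5 that call was lost (-0.40, adjusted p = 0.0554). Ehmt2 differed by 0.16 ± 0.14 (adjusted p = 0.36), so the ratio of Ehmt2 to Ehmt1 went from 1.02 to 2.07 in epiblast to 1.31 to 5.91 in PGC. Setdb1 and Suv39h2 did not pass (0.36 and 0.09 on the log2 scale, adjusted p = 0.0779 and 0.628). Setdb1 passed, as higher in PGC, in 4 of 33 alternatives, among them without E10.5 and E11.5 (0.64, adjusted p = 0.00743) and without E10.5 replicate 1 alone (0.47, adjusted p = 0.00489). Suv39h2 passed with the PGC of E12.5 and E15.5 alone (0.48, adjusted p = 0.0255).

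Among the H3K9 erasers, Kdm4c, a Jumonji demethylase of H3K9 trimethylation, showed the largest fall. It lay between 5.67 and 19.2 RPKM in epiblast (median 14.4) and between 0 and 14.0 RPKM in PGC (median 3.55). The overlap came from the 2 male E15.5 libraries and E9.5 replicate 2, which reached 12.5, 14.0 and 8.59 RPKM. The fall was -1.64 ± 0.28 (adjusted p = 0.000168). Its relative Kdm4b also fell (from 19.8 to 11.8 RPKM, -0.82 ± 0.20, adjusted p = 0.00301), whereas Kdm4a rose from 1.23 to 3.65 RPKM (0.95 ± 0.21, adjusted p = 0.0016). Kdm3b, a demethylase of H3K9 mono- and dimethylation, rose from 3.03 to 6.51 RPKM (0.84 ± 0.23, adjusted p = 0.00703). Kdm3a and Kdm7a did not pass (0.15 and -0.49, adjusted p = 0.254 and 0.193). Without the low-depth libraries of E10.5 and E11.5, Kdm3a was higher in PGC by 0.69 (adjusted p = 0.000146).

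For H3K27, the PRC2 subunit Suz12 rose and the demethylase Kdm6b fell, while the catalytic subunits Ezh1 and Ezh2 were not called in the main fit. Suz12, which holds the complex together, had 11.04 to 15.9 RPKM in epiblast (median 15.0) and 11.2 to 41.0 RPKM in PGC (median 28.0). Only the PGC libraries of E10.5 replicate 1 and of E11.5 fell within the epiblast range. The rise was 0.76 ± 0.13 (adjusted p = 0.000214). Ezh2, the main methyltransferase of PRC2, differed by -0.21 ± 0.11 (adjusted p = 0.116), and Ezh1, Eed and Jarid2 had adjusted p of 0.858, 0.123 and 0.851. Ezh2 passed as lower under median ratio scaling (adjusted p = 0.0466), without the E7.75 female library (0.0286) and with PGC without E15.5 (0.0263). Without E10.5 replicate 1 the Ezh2 value was -0.27. Eed passed as lower under quantile normalization (adjusted p = 0.0395) and median ratio scaling (0.0416). The ratio of Suz12 to Ezh2 within a library was 0.121 to 0.232 in epiblast and 0.195 to 0.654 in PGC. Kdm6b, which removes H3K27 trimethylation, lay between 2.41 and 5.05 RPKM in epiblast (median 3.32) and between 0.0326 and 3.42 RPKM in PGC (median 0.53). The 2 E9.5 libraries, at 1.79 and 3.42 RPKM, were the highest PGC ones, and all others were at or under 0.647 RPKM. The fall was -1.48 ± 0.18 (adjusted p = 5.98e-06). Kdm6b passed the filter on low values only through epiblast and E9.5 PGC. Its paralog Kdm6a, outside the chosen list, stood higher, at 8.19 to 19.8 RPKM in epiblast and 5.77 to 17.3 RPKM in PGC. The groups overlapped in Kdm6a, and no test of it is given here. Since Kdm6b was lower than Kdm6a in every library, its fall alone does not give the change of all H3K27 demethylase RNA.

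For H3K36, each pair split. Kdm2a and Kdm2b are paralogous demethylases of H3K36 that bind unmethylated CpG islands, Kdm2b as part of a Polycomb complex. Kdm2a had 8.83 to 12.2 RPKM in epiblast (median 11.6) and 2.097 to 8.19 RPKM in PGC (median 4.86). The groups did not overlap, and the fall was -1.17 ± 0.17 (adjusted p = 5.05e-05). Kdm2b had 21.7 to 28.3 RPKM in epiblast (median 26.5) and 15.4 to 100.1 RPKM in PGC (median 67.9). Both E9.5 libraries were below every epiblast one, and every PGC library from E10.5 on was above them all. The rise was 1.10 ± 0.11 (adjusted p = 1.27e-06). The H3K36 methyltransferase Nsd1 fell from 8.96 to 6.47 RPKM (-0.52 ± 0.12, adjusted p = 0.00188), a call lost without E10.5 and E11.5 (-0.25, adjusted p = 0.104). Setd2, the writer of H3K36 trimethylation, rose from 15.4 to 20.8 RPKM (0.32 ± 0.12, adjusted p = 0.0308). The Setd2 call was lost in 11 of 33 alternatives, among them quantile normalization (0.18, adjusted p = 0.209), PGC without E15.5 (0.10, adjusted p = 0.527) and leaving out any 1 of 6 libraries (E7.25 male replicate 2 or female, E7.75 male replicate 1 or female, E11.5 replicate 1 or E15.5 male replicate 2, adjusted p between 0.0512 and 0.0958). Dot1l, the writer of H3K79 methylation, did not pass (-0.15 ± 0.20, adjusted p = 0.545).

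The 250 bases before the start of Kdm2a and Kdm2b, whose levels moved apart, and of Suz12 and Kdm6b, which act on the same residue with opposite effect, are given below 5′ to 3′ on the strand of the gene. They are RefSeq sequences of the assembly GRCr8, which is not the build rn6 named for the deposited values. All of the 36 genes but Kmt2d, Ezh1 and Kmt2a matched that table, so the 33 matched genes are not the 33 tested ones. Capitals mark matches, on either strand, to the GC box GGGCGG, the CCAAT box CCAAT, the E2F words TTTCCCGC and TTTGGCGC, and the palindromic AP-2 word GCCNNNGGC.
Kdm2a, chr1:211110216-211110465, minus strand: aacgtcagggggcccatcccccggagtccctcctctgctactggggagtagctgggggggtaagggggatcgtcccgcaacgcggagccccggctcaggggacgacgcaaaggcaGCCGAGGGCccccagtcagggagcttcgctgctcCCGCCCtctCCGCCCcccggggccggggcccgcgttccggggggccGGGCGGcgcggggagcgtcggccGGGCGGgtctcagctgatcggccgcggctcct
Kdm2b, chr12:39235228-39235477, plus strand: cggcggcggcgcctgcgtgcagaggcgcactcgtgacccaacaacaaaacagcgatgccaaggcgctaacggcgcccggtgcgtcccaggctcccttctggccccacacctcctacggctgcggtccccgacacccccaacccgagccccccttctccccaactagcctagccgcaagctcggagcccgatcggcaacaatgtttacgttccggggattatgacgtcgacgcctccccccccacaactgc
Suz12, chr10:65464719-65464968, plus strand: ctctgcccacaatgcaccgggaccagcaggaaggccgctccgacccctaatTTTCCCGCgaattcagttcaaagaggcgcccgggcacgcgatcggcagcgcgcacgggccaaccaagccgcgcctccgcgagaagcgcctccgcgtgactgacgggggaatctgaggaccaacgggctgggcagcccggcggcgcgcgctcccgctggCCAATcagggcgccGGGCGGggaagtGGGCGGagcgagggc
Kdm6b, chr10:54641015-54641264, minus strand: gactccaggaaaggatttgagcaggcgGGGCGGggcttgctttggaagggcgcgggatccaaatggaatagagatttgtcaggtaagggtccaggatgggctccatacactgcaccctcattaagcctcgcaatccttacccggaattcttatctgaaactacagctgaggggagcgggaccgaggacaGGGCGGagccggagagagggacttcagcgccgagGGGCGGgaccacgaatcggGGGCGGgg
The window of Kdm2a held 4 GC boxes, 1 AP-2 word and 29 CpG, and that of Kdm2b held 26 CpG and no match to any of the words. The window of Suz12 held 2 GC boxes, 1 CCAAT box, 1 E2F word and 33 CpG, and that of Kdm6b held 4 GC boxes and 16 CpG. Over all 33469 windows of the table, 30.5% held a GC box, 34.0% a CCAAT box, 12.6% the AP-2 word, 0.81% TTTCCCGC and 0.41% TTTGGCGC. Of the 33 matched genes 24 held a GC box, 12 a CCAAT box and 7 the AP-2 word. Their median was 23 CpG per window, against 5 over all windows. All windows include those of genes that were not tested here, and no count over the windows of tested genes was made. These are matches of letters and not measured sites.

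For histone arginines, all 3 writers fell. Carm1, which methylates H3R17 and acts as a coactivator, had 106 to 127 RPKM in epiblast (median 113) and 36.4 to 83.9 RPKM in PGC (median 61.8). The groups did not overlap, and the fall was -0.97 ± 0.14 (adjusted p = 2.93e-05). Prmt5, the main writer of symmetric arginine dimethylation and a partner of Prdm1 in mouse germ cells, fell from 172 to 129 RPKM (-0.45 ± 0.06, adjusted p = 1.99e-05). Prmt1, the main writer of asymmetric arginine dimethylation, fell from 28.3 to 21.8 RPKM (-0.39 ± 0.08, adjusted p = 0.00091). In Prmt5 and Prmt1 the groups overlapped. Prmt5 reached 186 RPKM in E9.5 replicate 2 and 171 RPKM in E12.5 replicate 1, against 162 to 189 RPKM in epiblast. Prmt1 had 28.1 and 27.4 RPKM in male E15.5 PGC, against 23.1 to 33.5 RPKM in epiblast. With PGC and epiblast as 2 plain groups in limma, the Prmt1 call was lost (adjusted p = 0.0614).

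**Figure D2:**
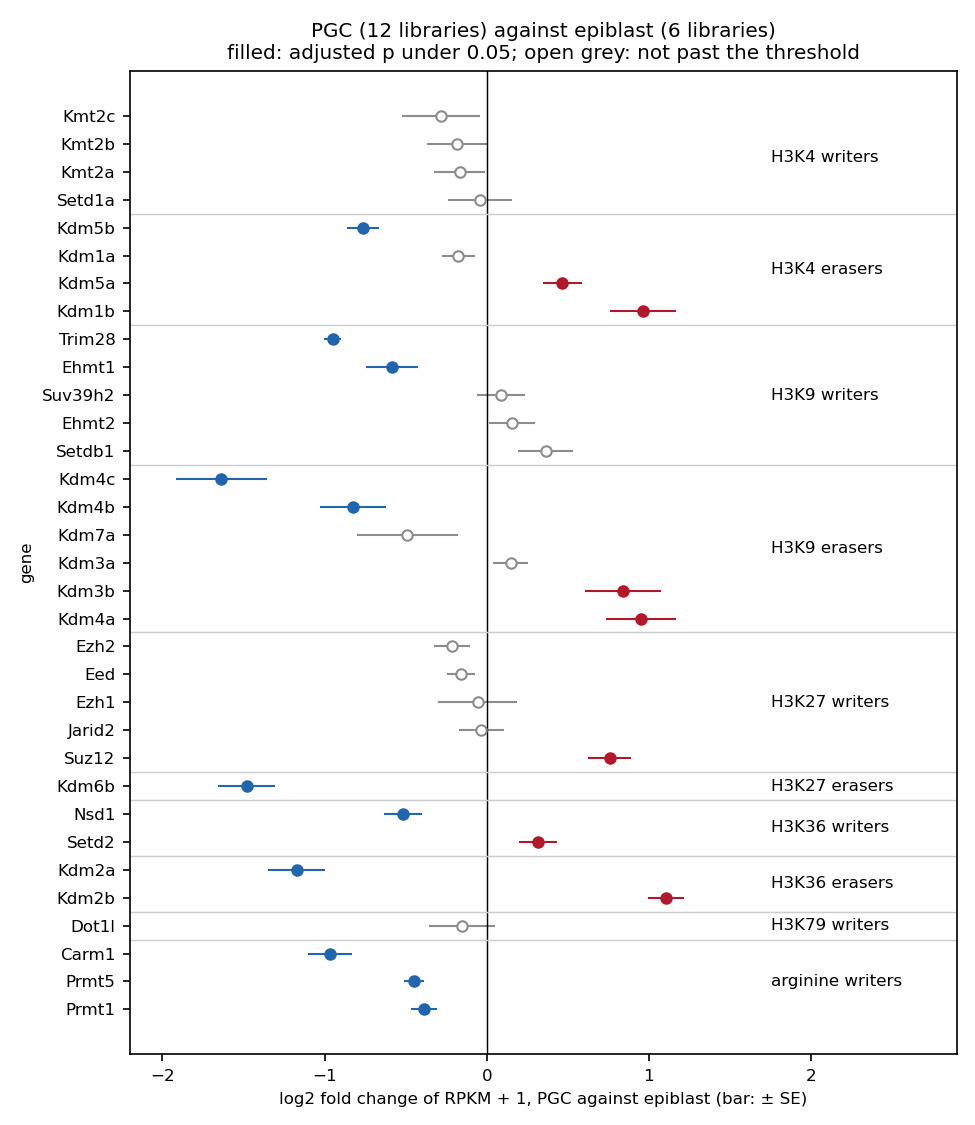
Log2 fold change of RPKM + 1 in PGC (12 libraries) against epiblast (6 libraries) for the 33 tested genes, grouped by mark and role; points are estimates, bars are ± 1 SE, filled points passed an adjusted p of 0.05. All 3 arginine writers lie left of 0, all 4 H3K4 writers are open points, and Kdm2a (-1.17) and Kdm2b (1.10) lie on opposite sides.

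Without E9.5, whose libraries held markers of other cells, 6 genes rose and 11 fell, against 32.0% and 27.2% of all tested genes. Without E10.5 and E11.5, 9 rose and 9 fell, against 34.3% and 25.1%. Without E15.5, the rises of Kdm5a and Setd2 no longer passed in limma. Kdm1a (-0.34, adjusted p = 0.0183) and Ezh2 (-0.35, adjusted p = 0.0263) then passed as lower, where 27.9% of all tested genes rose and 24.4% fell. With the PGC of E12.5 and E15.5 alone, a selection made after the data were seen, 10 rose and 10 fell, against 34.1% and 26.2%. Of these 20, 17 were among the 18 calls above. With PGC and epiblast as 2 plain groups, which puts the differences between stages into the error, 5 rose and 9 fell, against 21.0% and 19.3%.

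Among 55 other tested genes of these pathways (complex subunits, readers and further enzymes), 18 rose and 20 fell. Smyd2, a SET-domain lysine methyltransferase, rose most, from 13.9 to 27.8 RPKM in epiblast to 66.8 to 143 RPKM in PGC, without overlap (2.27 ± 0.11, adjusted p = 5.61e-10). Ncoa6, a subunit of the Kmt2c and Kmt2d complexes, rose from a mean of 1.78 to 9.87 RPKM (1.91 ± 0.19, adjusted p = 1.15e-06). The PRC2 accessory subunit Aebp2 fell from 11.2 to 2.31 RPKM (-2.01 ± 0.18, adjusted p = 3.17e-07) and the X-linked H3K4 demethylase Kdm5c from 65.4 to 22.0 RPKM (-1.59 ± 0.28, adjusted p = 0.000198).

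Within epiblast, none of the 33 genes passed between E7.75 and E7.25 in limma, where 0.269% of all tested genes did in either direction. At an unadjusted p under 0.05 stood 2 of them. Suv39h2, a writer of H3K9 trimethylation, had 15.3 to 26.6 RPKM at E7.25 and 30.8 to 32.8 RPKM at E7.75 (0.56 ± 0.24, adjusted p = 0.523). Kdm3a had 29.3 to 39.3 RPKM and 18.2 to 28.2 RPKM (-0.49 ± 0.18, adjusted p = 0.375).

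From E7.75 epiblast to the earliest PGC at E9.5, 3 of the 33 genes rose and 2 fell. Of all tested genes 16.3% rose and 11.3% fell, and under quantile normalization the split over all genes turned from 2422 higher and 1686 lower to 2028 and 2173. The H3K9 demethylase Kdm3a stood at 18.2, 28.2 and 25.3 RPKM on the later epiblast day and at 50.2 and 43.3 RPKM in E9.5 PGC (0.96 ± 0.20, adjusted p = 0.00234). Suz12 stood at 11.04, 12.5 and 14.6 RPKM and at 27.9 and 25.7 RPKM (1.03 ± 0.24, adjusted p = 0.00598). In both genes each E9.5 library exceeded each epiblast one. Kdm5a rose from a mean of 19.3 to 31.1 RPKM (0.69 ± 0.22, adjusted p = 0.033), a call lost without the E7.75 female library (0.49) or without either E9.5 library (adjusted p = 0.121, 0.0952 and 0.12). Carm1 fell from 127, 106 and 116 RPKM to 38.3 and 77.3 RPKM (-1.07 ± 0.25, adjusted p = 0.00505). The E9.5 replicates of Carm1 lay further apart than the epiblast libraries, and without E9.5 replicate 1 the call was lost (-0.58, adjusted p = 0.0911). Trim28 fell from 586 to 327 RPKM (-0.84 ± 0.10, adjusted p = 2.33e-05).

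The same E9.5 libraries differed from E7.75 epiblast in markers of other cells. Of these, 5 of 5 tested markers of extraembryonic mesoderm, 5 of 6 of mesenchyme, 2 of 5 of endothelium and 1 of 2 of blood rose, as did 6 of 7 genes of handling and stress. Mesenchyme markers summed to 171 to 174 RPKM at E9.5 against 1.07 to 4.59 RPKM in E7.75 epiblast, endothelial ones to 26.5 to 95.4 against 0.03 to 0.49 RPKM, and stress genes to 352 to 470 against 50.5 to 63.2 RPKM. Col1a2, Gata1 and Hbb were listed at 0 in all 18 libraries and Hba1 in 17, so their 0 at E9.5 says nothing of E9.5 in particular. Any part of other cells in the levels of the writers and erasers at E9.5 was not tested. Among the other 55 pathway genes 8 rose and 8 fell. Smyd2 rose from 15.4 to 107 RPKM (2.71 ± 0.20, adjusted p = 3.36e-07), Ncoa6 from 1.89 to 8.16 RPKM (1.67 ± 0.35, adjusted p = 0.00271). The H3K4 core subunit Dpy30 fell from 663 to 287 RPKM (-1.21 ± 0.14, adjusted p = 2.14e-05) and Aebp2 from 10.9 to 2.83 RPKM (-1.65 ± 0.33, adjusted p = 0.00176).

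Between E9.5 and E10.5 falls outnumbered rises. Of the 33 genes 10 fell and 2 rose, where 18.4% of all tested genes fell and 11.5% rose. Among the 13 erasers 7 fell and 1 rose, and among the 20 writers 3 fell and 1 rose. The median log2 fold change was -0.99 for erasers, -0.36 for writers and -0.16 for all tested genes. Under quantile normalization, which moved the median of all genes from -0.16 to 0.03 and the split of all calls from 1711 higher and 2732 lower to 2068 and 1931, 5 erasers fell and 1 rose, with a median of -0.72, and 4 writers fell and 2 rose, with a median of -0.14. Trim28 (-0.55, adjusted p = 0.00484) and Eed (-0.53, adjusted p = 0.0125) then passed as lower, and Nsd1 did not.

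The H3K9 erasers carried the widest changes. Kdm3a went from 50.2 and 43.3 RPKM to 10.3 and 10.1 RPKM (-2.09 ± 0.22, adjusted p = 1.64e-05). Kdm4c went from 2.28 and 8.59 RPKM to 0.361 RPKM in E10.5 replicate 1 and was listed at 0 in replicate 2 (-2.26 ± 0.56, adjusted p = 0.0073). For both genes each E10.5 library was below each E9.5 one, although the E9.5 values of Kdm4c were far apart. Without E9.5 replicate 2 the Kdm4c call was lost (-1.49, adjusted p = 0.0881). Kdm4b went from 6.42 and 24.5 RPKM to 4.77 and 4.76 RPKM (-1.26 ± 0.41, adjusted p = 0.0311), and without the same library the value was -0.36 (adjusted p = 0.374). Leaving out either E10.5 library also lost the Kdm4b call (adjusted p = 0.094 and 0.0869).

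The H3K4 erasers Kdm5b, Kdm5a and Kdm1a fell as well. Kdm5b went from 61.9 and 70.0 RPKM to 27.6 and 35.3 RPKM (-1.05 ± 0.20, adjusted p = 0.00114). Kdm5a fell from a mean of 31.1 to 15.5 RPKM (-0.99 ± 0.24, adjusted p = 0.00717) and Kdm1a from 109 to 70.0 RPKM (-0.62 ± 0.20, adjusted p = 0.0327). The Kdm5a and Kdm1a calls were lost without E10.5 replicate 1 (-0.69 and -0.38, adjusted p = 0.081 and 0.262), and that of Kdm1a also without E9.5 replicate 2 (-0.34, adjusted p = 0.281). Kdm6b went from 1.79 and 3.42 RPKM to 0.647 and 0.0715 RPKM (-1.40 ± 0.35, adjusted p = 0.00811), a call lost under quantile normalization (adjusted p = 0.224) and without E9.5 replicate 2 or E10.5 replicate 2 (adjusted p = 0.0662 and 0.0664). Kdm6b reached 1 RPKM only in epiblast and E9.5 PGC, so it was tested only through groups where it was high. The eraser that rose was Kdm2b, from 15.4 and 21.5 RPKM to 29.1 and 44.9 RPKM (0.95 ± 0.22, adjusted p = 0.0057). Without E10.5 replicate 2 the Kdm2b value was 0.64 (adjusted p = 0.0641), and without E9.5 replicate 1 it was 0.72 (adjusted p = 0.0562).

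Among the writers, Setd2 went from 25.7 and 20.3 RPKM to 11.1 and 7.28 RPKM (-1.25 ± 0.23, adjusted p = 0.00123). Prmt5 went from 153 and 186 RPKM to 105 RPKM in both E10.5 libraries (-0.68 ± 0.12, adjusted p = 0.000887), and Nsd1 fell from a mean of 9.54 to 5.28 RPKM (-0.75 ± 0.24, adjusted p = 0.0291). The Nsd1 call was lost under quantile normalization (-0.30, adjusted p = 0.42) and without E9.5 replicate 1 or either E10.5 library (adjusted p = 0.101, 0.0587 and 0.0872). The writer that rose was Ehmt2, from 15.8 and 29.1 RPKM to 38.8 and 47.8 RPKM (0.97 ± 0.28, adjusted p = 0.0182), a call lost without E9.5 replicate 1 (0.55, adjusted p = 0.186) or E10.5 replicate 2 (adjusted p = 0.0997). None of the 5 PRC2 genes passed, although 4 stood at an unadjusted p under 0.05, and those 4 passed as lower in some alternatives. Without E10.5 replicate 1, Ezh2 (-0.86, adjusted p = 0.0157) and Eed (-0.64, adjusted p = 0.0296) passed. Suz12 passed without E10.5 replicate 2 (-1.18, adjusted p = 0.0028), and Jarid2 without E9.5 replicate 1 (-0.93, adjusted p = 0.0429). Eed also passed without E9.5 replicate 2 (-0.61, adjusted p = 0.0368). Among the H3K9 writers, Setdb1 (-1.42, adjusted p = 0.00329) and Ehmt1 (-1.04, adjusted p = 0.0308) passed without E10.5 replicate 2. Without E9.5 replicate 2, Kdm7a passed as lower (-2.30, adjusted p = 0.0282) and Carm1 as higher (0.76, adjusted p = 0.0382). In this comparison all 5 tested markers of extraembryonic mesoderm and 5 of 6 of mesenchyme fell, as did 5 of 7 genes of handling and stress, and relative depth was 20.72% and 22.09% at E10.5 against 104.92% and 103.25% at E9.5. Their part in the falls of the erasers was not tested. With the error taken from the 4 compared libraries alone, none of the 12 calls remained.

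The line Suv39h1l1, which RefSeq gives as a synonym of the H3K9 methyltransferase Suv39h1, was not among the chosen symbols and was examined after its values were seen. It stood at 15.5 to 20.3 RPKM in epiblast, at 56.7 and 55.1 RPKM at E9.5, and at 9.31 and 5.83 RPKM at E10.5. Both E9.5 libraries were above, and both E10.5 libraries below, every epiblast library. It rose into E9.5 (1.61 ± 0.25, adjusted p = 0.000254) and fell to E10.5 (-2.76 ± 0.27, adjusted p = 1.19e-05). It then rose from 12.6 and 10.4 RPKM at E12.5 to 12.04, 21.1, 29.6 and 22.6 RPKM at E15.5 (0.78 ± 0.23, adjusted p = 0.038).

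From E10.5 to E11.5, 3 of the 33 genes rose and 0 fell, and all 3 were H3K9 erasers. Of all tested genes 3.59% rose and 3.61% fell. Kdm4c went from 0.361 RPKM and a listing at 0 to 5.58 and 2.66 RPKM (2.07 ± 0.56, adjusted p = 0.039). Kdm4b went from 4.77 and 4.76 RPKM to 14.0 and 17.5 RPKM (1.53 ± 0.41, adjusted p = 0.0364), and Kdm3a from 10.3 and 10.1 RPKM to 18.8 and 20.1 RPKM (0.87 ± 0.22, adjusted p = 0.0278). No E11.5 library overlapped an E10.5 one in these genes. The comparison shares the E10.5 libraries with the one before, so low values there enter both with opposite sign. None of the 3 passed under quantile normalization (adjusted p = 0.0836 for Kdm3a, 0.077 for Kdm4b and 0.0759 for Kdm4c) or without any 1 of the 4 compared libraries (adjusted p between 0.0654 and 0.224).

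From E11.5 to E12.5, 4 genes rose and 0 fell, where 4.12% of all tested genes rose and 3.09% fell. Kdm3a went from 18.8 and 20.1 RPKM to 58.5 and 60.7 RPKM (1.57 ± 0.22, adjusted p = 0.00145). Suz12 went from 14.8 and 14.5 RPKM to 34.0 and 34.8 RPKM (1.18 ± 0.27, adjusted p = 0.0173). In both genes the replicates lay close together on each day and the days far apart. Kdm5a rose from a mean of 22.9 to 43.2 RPKM (0.88 ± 0.24, adjusted p = 0.0441) and Setd2 from 13.6 to 25.8 RPKM (0.88 ± 0.23, adjusted p = 0.0369). The Kdm3a call held in 28 of 29 alternatives and the Kdm5a call in 12 of 29. The calls of Suz12, Kdm5a and Setd2 were lost without any 1 of the 4 compared libraries (adjusted p between 0.0815 and 0.25). Genes of handling and stress summed to 702 to 744 RPKM at E12.5 and to 259 to 271 RPKM at E11.5, and their part in these rises was not tested. Of the other pathway genes 4 rose and 1 fell. Hcfc1, a subunit of the Setd1 complexes, rose from 3.90 to 10.1 RPKM (1.16 ± 0.27, adjusted p = 0.0181), and Dpy30 fell from 323 to 208 RPKM (-0.63 ± 0.15, adjusted p = 0.0228).

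**Figure D3:**
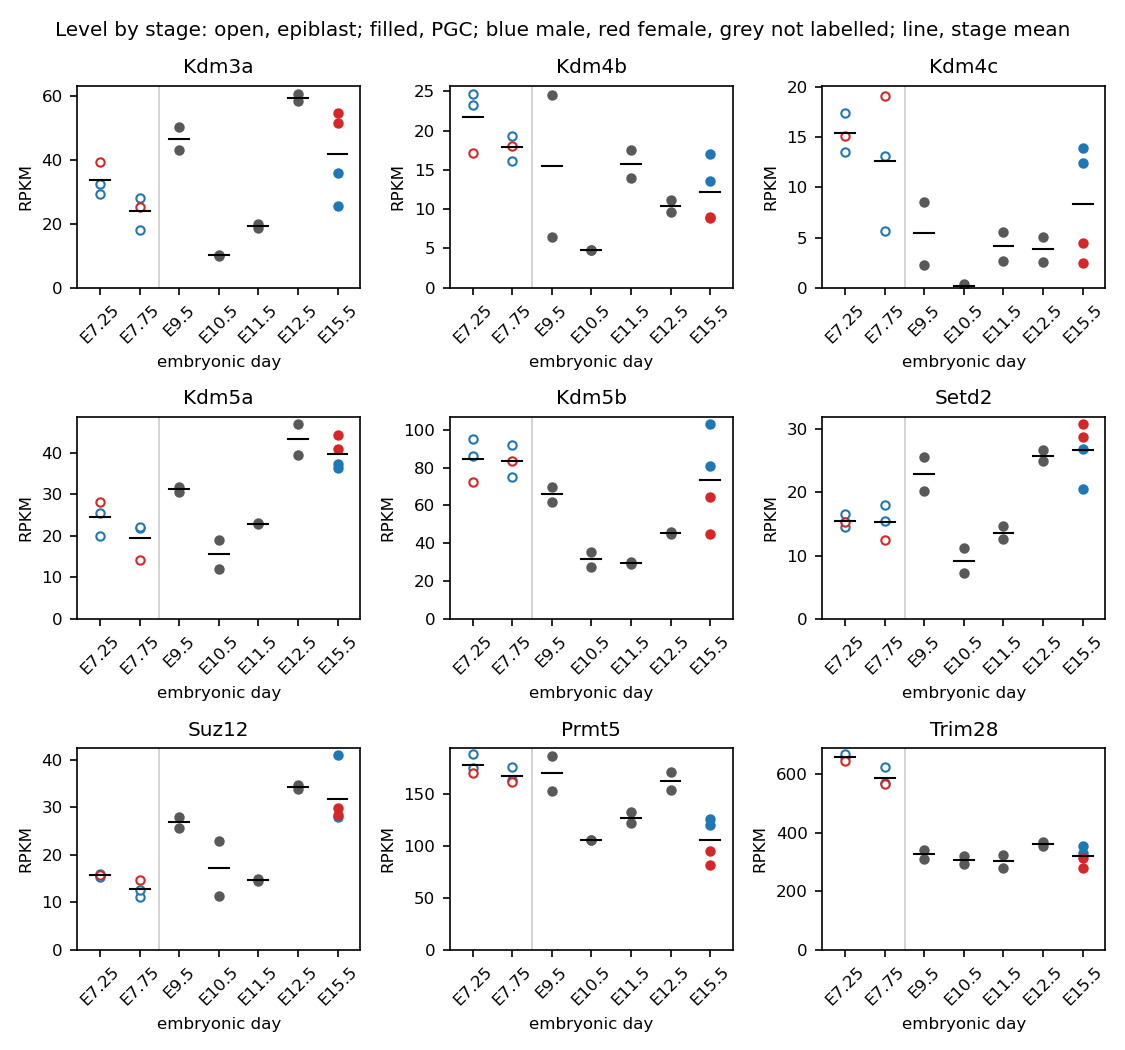
RPKM of 9 genes by embryonic day; open points are epiblast libraries, filled points PGC, blue labelled male, red labelled female, grey of no labelled sex, and the line is the mean of the day. Kdm3a drops from 43.3 and 50.2 RPKM at E9.5 to 10.1 and 10.3 RPKM at E10.5 and stands at 58.5 and 60.7 RPKM at E12.5, while Trim28 is at most 369 RPKM in PGC and at least 565 RPKM in epiblast.

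Set directly against E9.5, the E12.5 PGC had 1 gene higher and 3 lower. Of all tested genes 11.3% were higher and 11.9% lower. Kdm2b stood at 15.4 and 21.5 RPKM at E9.5 and at 87.6 and 92.7 RPKM at E12.5 (2.24 ± 0.22, adjusted p = 8.72e-06), and passed in all 29 alternatives. Kdm2a had 5.41 and 8.19 RPKM and then 3.32 and 2.097 RPKM (-1.07 ± 0.35, adjusted p = 0.0398), a call lost in 9 of 29 alternatives, among them without E9.5 replicate 2 (-0.81, adjusted p = 0.189) and without E12.5 replicate 2 (-0.83, adjusted p = 0.236). Kdm6b fell from a mean of 2.61 to 0.396 RPKM (-1.33 ± 0.35, adjusted p = 0.0136) and Nsd1 from 9.54 to 4.43 RPKM (-0.96 ± 0.24, adjusted p = 0.0098). Of the PGC groups, only E9.5 brought Kdm6b past the filter on low values. Without E12.5 replicate 1 neither Kdm6b nor Nsd1 passed (adjusted p = 0.0812 and 0.0572), and Kdm6b did not pass without E9.5 replicate 2 (adjusted p = 0.0913). Kdm3a, at 46.8 and 59.6 RPKM on average, did not pass (adjusted p = 0.283). In the same comparison 5 of 5 tested markers of extraembryonic mesoderm fell (sums of 357 to 365 RPKM at E9.5 and 6.03 to 7.48 RPKM at E12.5), as did 5 of 6 of mesenchyme and 2 of 5 of endothelium. Their part in the falls of Kdm6b, Kdm2a and Nsd1 was not tested. Among the other pathway genes 7 rose and 6 fell. Ash2l, a core subunit of all Kmt2 and Setd1 complexes, rose from 122 and 125 RPKM to 409 and 403 RPKM (1.71 ± 0.09, adjusted p = 7.23e-08). The neural arginine methyltransferase Prmt8 rose from 1.33 to 9.49 RPKM (2.181 ± 0.37, adjusted p = 0.000727).

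The ratio of Kdm2b to Kdm2a within a library describes the same course without the scaling between libraries. It was 1.81 to 3.12 in epiblast, 2.63 and 2.85 at E9.5, 5.54 and 16.6 at E10.5, and 10.96 and 21.9 at E11.5. It reached 26.3 and 44.2 at E12.5 and stood at 15.8 to 27.7 at E15.5. The E9.5 values lay inside the epiblast range and all later ones above it. The ratio of Kdm5b to Kdm5a was 2.58 to 5.97 in epiblast, 2.02 and 2.21 at E9.5, and lowest at E12.5, with a median of 1.06. No test was made of these ratios.

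**Figure D4:**
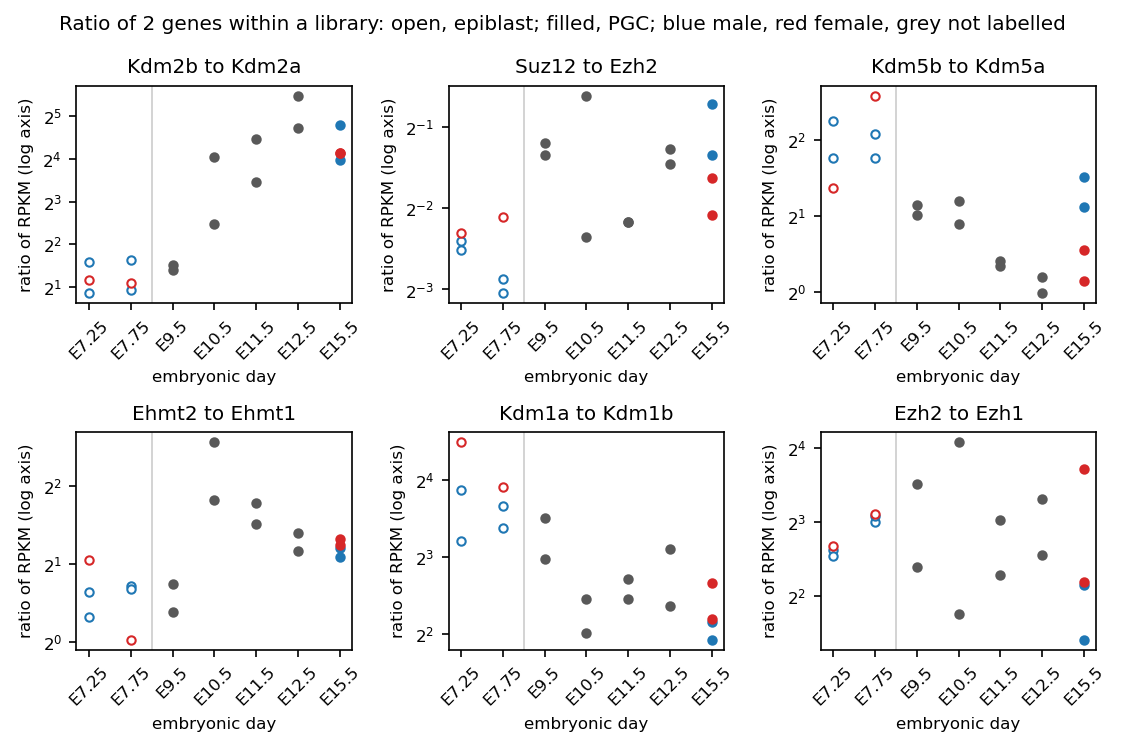
Ratio of the RPKM of 2 related genes within each library (log axis) by embryonic day; open points are epiblast, filled points PGC, blue labelled male, red labelled female, grey of no labelled sex. The ratio of Kdm2b to Kdm2a is at most 3.12 in epiblast and at least 5.54 in every PGC library from E10.5, and that of Ezh2 to Ezh1 spreads from 2.65 to 16.8 among PGC with no order by stage.

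From E12.5 to E15.5, with male and female PGC weighted equally, 2 genes rose and 2 fell. Of all tested genes 6.81% rose and 8.27% fell. Kdm5b went from 45.03 and 46.2 RPKM to 80.8, 103, 64.4 and 45.01 RPKM (0.61 ± 0.17, adjusted p = 0.0254). The last of these, a female library, lay at the E12.5 level, and the 2 male libraries were highest. Nsd1 went from 4.26 and 4.60 RPKM to 5.65, 6.75, 10.5 and 10.9 RPKM (0.76 ± 0.21, adjusted p = 0.0235), with the female libraries highest. Jarid2, a PRC2 partner that guides the complex to its targets, went from 101 and 86.5 RPKM to 45.4, 68.0, 66.1 and 34.3 RPKM (-0.85 ± 0.24, adjusted p = 0.0281). Prmt5 went from 171 and 154 RPKM to 126, 120.2, 94.7 and 81.7 RPKM (-0.64 ± 0.11, adjusted p = 0.00107). In Jarid2, Nsd1 and Prmt5 the days did not overlap. In the same comparison all 4 markers of gonadal germ cells rose (sums of 526 to 560 RPKM at E12.5 and 1457 to 1527 RPKM at E15.5) and 2 of 7 genes of handling and stress fell. Of the tested markers, 1 of 5 of extraembryonic mesoderm (6.03 to 7.48 and then 8.84 to 28.2 RPKM) and 1 of 6 of mesenchyme (1.84 to 5.03 and then 5.74 to 22.4 RPKM) rose. Their part in the 4 changes was not tested. Leaving out either E12.5 library lost the calls of Kdm5b, Nsd1 and Jarid2 (adjusted p between 0.107 and 0.211), but not that of Prmt5. Calls were also lost without male replicate 2 (Kdm5b and Nsd1), male replicate 1 (Jarid2), female replicate 1 (Kdm5b) or female replicate 2 (Jarid2 and Nsd1), with adjusted p between 0.0507 and 0.089. Among the other pathway genes 2 rose and 5 fell. Prmt8 fell from 9.21 and 9.78 RPKM to between 0.0734 and 0.378 RPKM (-3.10 ± 0.32, adjusted p = 2.91e-05), and its relative Prmt2 from a mean of 8.13 to 1.52 RPKM (-1.86 ± 0.30, adjusted p = 0.000992). Atf7ip, a partner of Setdb1, rose from 15.6 to 31.7 RPKM (0.96 ± 0.20, adjusted p = 0.00493).

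At E15.5, 2 of the 33 genes were higher in females and 3 were lower. Of all tested genes 3.66% were higher and 4.5% lower. Prmt1 stood at 28.1 and 27.4 RPKM in males and at 13.0 and 13.9 RPKM in females (-0.99 ± 0.16, adjusted p = 0.00376). Kmt2a, the founding member of the H3K4 methyltransferase family, stood at 0.370 and 0.163 RPKM in males and at 2.45 and 1.90 RPKM in females (1.32 ± 0.34, adjusted p = 0.0339). Kdm3a stood at 25.5 and 35.9 RPKM in males and at 51.5 and 54.9 RPKM in females (0.79 ± 0.22, adjusted p = 0.0443). The sexes did not overlap in any of these genes. Kdm5b was lower in females (54.7 against 92.0 RPKM, -0.75 ± 0.20, adjusted p = 0.0394), as was Prmt5 (88.2 against 123 RPKM, -0.48 ± 0.13, adjusted p = 0.0435). Prmt1 passed in 28 of 29 alternatives, Kmt2a in 23 of 28, and Kdm3a, Kdm5b and Prmt5 in 17, 16 and 13 of 29. Kmt2a did not pass without any 1 of the 4 E15.5 libraries (adjusted p between 0.09 and 0.165), and each of Kdm3a, Kdm5b and Prmt5 failed without 3 of them. Epiblast markers summed to 1225 to 1328 RPKM in the male and to 516 to 576 RPKM in the female libraries. Genes of cell division summed to 2294 to 2339 and to 1740 to 1812 RPKM, and those of handling and stress to 598 to 623 and to 307 to 350 RPKM. Single genes did not all follow the sums. Of 10 tested genes of cell division 1 was higher in females and 3 were lower. Of 7 genes of handling and stress 1 was higher and 3 were lower. The part of these genes and of the epiblast markers in the differences was not tested.

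In epiblast none of the 33 genes differed between the sexes in limma, where 0.0605% of all tested genes did, and 1 stood at an unadjusted p under 0.05 (Kdm1b, -0.75 ± 0.31, adjusted p = 1). Without the library labelled E7.25 male replicate 2 the count was again 0, and Kdm1b differed by -0.85 ± 0.34 (adjusted p = 0.74). Prmt1 had 23.1 to 33.5 RPKM in the 4 libraries labelled male and 28.1 and 27.01 RPKM in the 2 female ones (-0.04 ± 0.14, adjusted p = 1, and -0.02 ± 0.15 without that library). The difference between the sex difference at E15.5 and that in epiblast was past the threshold for Prmt1 alone (-0.95 ± 0.22, adjusted p = 0.0398), where 2.91% of all tested genes passed. Without the library whose label did not match, Prmt1 no longer passed (-0.97, adjusted p = 0.0553), and it was called in 12 of 29 alternatives. For Kmt2a the difference was 1.31 ± 0.45 (adjusted p = 0.152), and for Kdm3a, Kdm5b and Prmt5 it was 0.55, -0.60 and -0.40 (adjusted p = 0.381, 0.276 and 0.271). Without that library the Kmt2a value was 1.16 ± 0.43 (adjusted p = 0.207), and those of Kdm3a, Kdm5b and Prmt5 were 0.51, -0.63 and -0.43 (adjusted p = 0.467, 0.297 and 0.272). The library also enters the shared spread at E15.5, where without it 2 genes were called (Prmt1 and Kmt2a).

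**Figure D5:**
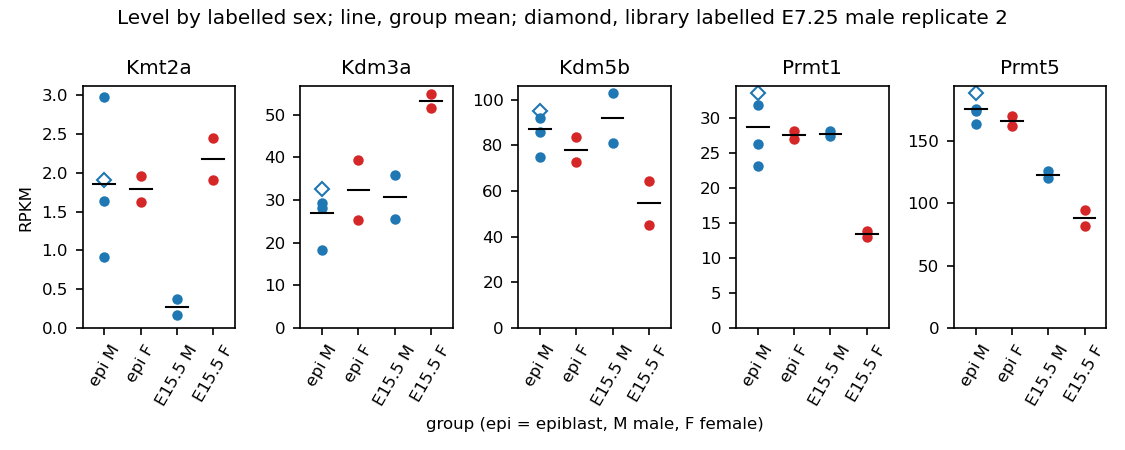
RPKM of the 5 genes that differed between the sexes at E15.5, in epiblast (4 libraries labelled male, 2 female) and in E15.5 PGC (2 male, 2 female); the line is the group mean and the diamond is the library labelled E7.25 male replicate 2. Prmt1 is at 13.0 and 13.9 RPKM in female E15.5 PGC and at 23.1 RPKM or above in all other groups shown.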

How the data were processed

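The 18 libraries were made from RNA isolated by PicoPure and amplified by SMART-Seq v4, per the labels' protocols. The deposited values are RPKM in 1 table made by the authors. Per the submitters' processing notes, the build was rn6 and the tools included Cufflinks 2.2.1, TopHat2 2.1.0, cutadapt 1.14 and bcl2fastq 2.18.0.12. For annotation, strand and multi-mapping reads, the choices were "not given in the sources used here". Columns of samples outside the series numbered 0.

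Values were set to log2(RPKM + 1). Genes with at least 1 RPKM in at least 2 libraries entered limma 3.58.1 (R 4.3.3), in 1 model of 8 groups (10 groups for sex) that shares the spread over all libraries. P-values were adjusted over all 14865 genes within a comparison by the Benjamini-Hochberg method, at a threshold of 0.05, two-sided. The fit was also run on simulated data with normal noise, no low-depth libraries and changes only in genes of higher level. Its outcome is not given here and does not bear on the calls of low genes. Depth came from the most common ratio of values under 50 RPKM. By rule, each comparison gives in full the gene of each mark with the largest change among those past the threshold, with paralogs and partners, and at most 2 rises and 2 falls of other pathway genes whose higher group averaged 5 RPKM or more. Genes and lists were chosen with earlier results of these data known. Alternatives changed the pseudocount, filter, scaling, variance model, libraries and a replicate block. Plots used Python 3.11.15 and matplotlib 3.10.9.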

Additional observations from a re-analysis of the deposited data

Results flagged for a closer look

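In groups of 4 or 6 libraries, a single library stood apart in 2 of 68 gene and group combinations examined, where chance flags about 1 in 20. Setd1a in E15.5 PGC was at 5.47 RPKM in female replicate 2, against 3.24 to 3.57 RPKM in the other 3 libraries. Suz12 in E15.5 PGC was at 41.0 RPKM in male replicate 1, against 28.0 to 29.8 RPKM in the others. The sex difference of Prmt1 differed between E15.5 PGC and epiblast by -0.95 on the log2 scale in the interaction term of limma, and this call was lost in 17 of 29 alternatives.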

How the results depend on the processing

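Of 56 calls of writers and erasers over the comparisons, 17 held in every alternative run, 39 were lost in at least 1, and 0 changed sign. The largest effect came from taking the error from the compared libraries only, which leaves few degrees of freedom. The number called was then 3 from E7.75 to E9.5 (5 in the shared model), 0 from E9.5 to E10.5 (12), 0 from E10.5 to E11.5 (3), 0 from E11.5 to E12.5 (4), 1 from E9.5 to E12.5 (4), 1 from E12.5 to E15.5 (4), 0 between the sexes at E15.5 (5) and 0 for the difference of sex differences (1). Quantile normalization gave 9 (2 higher, 7 lower) from E7.75 to E9.5, 0 from E10.5 to E11.5 and 2 for the difference of sex differences. Median ratio scaling gave 2 from E11.5 to E12.5. Without a variance trend there were 3 between the sexes at E15.5 and 0 for the difference of sex differences, which was also 0 with robust variance. The causes of these changes were not tested.

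With 1 library left out at a time, the number called ranged from 17 to 20 for PGC against epiblast, 3 to 7 from E7.75 to E9.5, 0 to 4 from E10.5 to E11.5, 1 to 4 from E11.5 to E12.5, 1 to 6 from E9.5 to E12.5, 1 to 5 from E12.5 to E15.5, 1 to 6 between the sexes at E15.5 and 0 to 2 for the difference of sex differences. Replicate numbers did not pair the libraries, since deviations of same-numbered libraries correlated between -0.133 and 0.0581 over 15 pairs of groups. With the replicate block, 3 genes were called between the sexes at E15.5 and 0 for the difference of sex differences, and the other counts stayed within 1.5 times. Low genes such as Kdm4c, Kdm6b and Kdm7a were measured at low depth at E10.5 and E11.5, and the part of depth in their values was not tested. Kdm6b was also low at E12.5 (0.305 and 0.488 RPKM), where depth was not low.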
